A study of Mus musculus with 12 samples.

Results

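Binding of the hypoxia-inducible factor subunits HIF1A and ARNT was examined at 6 genes of mitophagy and of the start of autophagy: Bnip3, Bnip3l, Fundc1, Pink1, Ulk1 and Becn1. They were chosen by name, with earlier results of these data known, from 21631 protein-coding genes. Each of the 6 was examined over its span in the mouse build mm10 plus 10 kb on either side. The data are chromatin immunoprecipitation sequencing (ChIP-seq) peak lists from N1E115, a mouse neuroblastoma line described as expressing the neuronal nitric oxide synthase NOS1. All cells were kept for 3 days in 5% CO2, either at 20% O2 or at 4% O2, and no group carried a further treatment or a genetic change by the labels. There were 8 ChIP samples, 2 for each antibody at each oxygen level, and 4 input samples; each ChIP sample has its own list of peaks. The labels do not say whether the replicates were separate cultures, so their spread may be technical. A list of peaks measures where a protein was found on DNA and not how strongly a gene was expressed, so cell type markers were not checked here.

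Mitophagy is the removal of mitochondria by autophagy. Receptors in the outer mitochondrial membrane, among them BNIP3, BNIP3L (also called NIX) and FUNDC1, bind LC3-family proteins on the growing autophagosome, and the kinase PINK1 accumulates on damaged mitochondria and recruits the ubiquitin ligase Parkin. ULK1 is the kinase that starts autophagosome formation, and BECN1 is the scaffold of the VPS34 lipid kinase complex that acts next. HIF1A and ARNT form a dimer, HIF-1, which recognises the core letters ACGTG or GCGTG, and BNIP3 is a well-known HIF-1 target in low oxygen.

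The promoters of Bnip3 and Pink1 are shown because peaks lay on them and because they differ in the number of core letters. They are the 250 bases before the transcription start, from RefSeq (GRCm38.p6, the build also called mm10), minus strand of the chromosome, printed 5′ to 3′ with each ACGTG or GCGTG on either strand in capitals (CACGC is GCGTG on the other strand). CACGTG reads the same on both strands and holds ACGTG on each of them.

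Bnip3, chr7:138909507-138909756: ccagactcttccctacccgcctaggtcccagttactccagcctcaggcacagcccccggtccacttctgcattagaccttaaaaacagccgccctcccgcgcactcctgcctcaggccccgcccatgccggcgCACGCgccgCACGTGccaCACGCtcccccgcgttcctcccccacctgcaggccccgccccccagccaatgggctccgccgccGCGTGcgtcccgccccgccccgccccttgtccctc

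Pink1, chr4:138326297-138326546: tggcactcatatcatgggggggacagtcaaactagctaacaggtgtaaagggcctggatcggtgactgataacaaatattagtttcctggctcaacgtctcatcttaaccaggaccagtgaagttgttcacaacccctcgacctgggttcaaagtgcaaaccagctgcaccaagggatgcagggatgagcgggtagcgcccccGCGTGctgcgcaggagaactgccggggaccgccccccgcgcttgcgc

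The 300-base promoter window, which also takes in the 50 bases after the start, held 5 such cores for Bnip3, 1 for Pink1, 1 for Ulk1 and 0 for Fundc1. For Fundc1 the start used was 17572007 and the gene span ends at 17572329, so its promoter window lies wholly inside the span. Bases upstream of the Fundc1 span were not searched. At least 1 core was present in 43.8% of 32851 RefSeq promoter windows of this length, and 4 or more in 3.86% of them. The 5 cores of Bnip3 included the CACGTG, which 7.15% of windows held. Promoter sequences of Bnip3l and Becn1 were not used here.

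At 4% O2, HIF1A and ARNT peaks were found in both lists at Bnip3, Bnip3l and Ulk1, and at these genes they ranked among the highest peaks of the genome. HIF1A had a peak in both lists at 3 of the 6 genes at 4% O2, against 34.5% of all protein-coding genes, and at 0 of 6 at 20% O2, against 10.7%. ARNT had a peak in both lists at 4 of 6 at 4% O2, the fourth being Pink1, against 31.6% of all genes, and at 0 of 6 at 20% O2, against 7.25%. The 3 genes called for both antibodies at 4% O2 compare with 26.4% of all genes. With only 6 genes these counts are coarse, and the ranks of the peaks are given gene by gene. The score of a peak is the authors' own value and is used here only as a percentile within its list, with 100 for the highest peak.

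In single lists the counts were uneven. HIF1A replicate 1 had a peak at 6 of 6 genes at 4% O2 (56.9% of all genes) and at 0 of 6 at 20% O2 (11.3%). HIF1A replicate 2 had one at 3 of 6 at 4% O2 (34.8%) and at 4 of 6 at 20% O2 (31.7%). For ARNT the counts were 5 and 4 of 6 at 4% O2 (49.3% and 35.5%) and 3 and 0 of 6 at 20% O2 (22.3% and 7.6%), for replicates 1 and 2. At 20% O2 the 4 genes with a HIF1A summit in replicate 2 and the 3 genes with an ARNT peak in replicate 1 went uncalled because the other list had none. The remaining genes had no peak in either list. The highest HIF1A replicate 2 summits at 20% O2 ranked 24 (Ulk1), 47 (Bnip3) and 203 (Bnip3l) of 13386, yet HIF1A replicate 1 had no peak at these genes. The replicates thus differed at strong sites, and the reason was not tested. The lists held 5393 and 13386 HIF1A peaks at 20% O2 and 42701 and 13655 at 4% O2, and 7252 and 1808 ARNT peaks at 20% O2 and 24942 and 9920 at 4% O2. Read depth is unknown, and a gene without a peak may have had a signal under the caller's limit. When each list was cut to its 1808 highest peaks, Bnip3, Bnip3l and Ulk1 were still the genes called at 4% O2 for HIF1A (6.63% of all genes) and for ARNT (5.63%), and none was called at 20% O2. The HIF1A replicate 2 summits of 20% O2 at ranks 24, 47 and 203 lay within that cut.

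**Figure D1:**
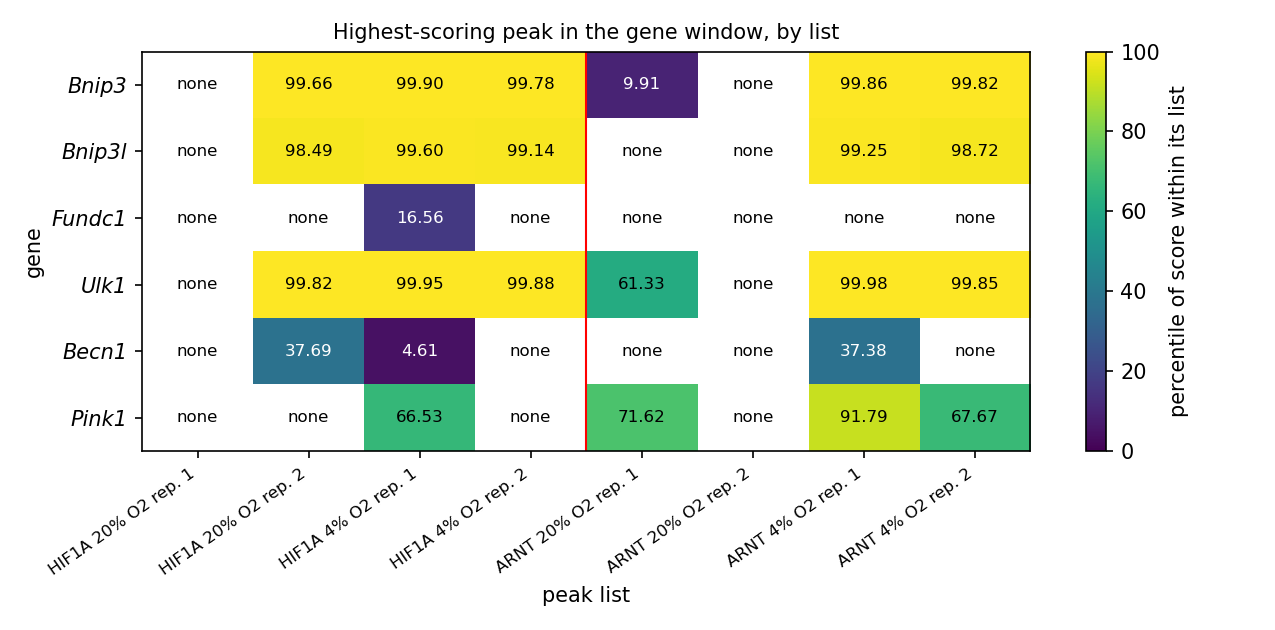
Percentile of the highest-scoring peak in the window of each gene (rows) in each of the 8 peak lists (columns), from 0 to 100 within a list, with "none" where the list had no peak there; the red line divides the antibodies. Bnip3, Bnip3l and Ulk1 lie at 98.49 or more in all 4 lists at 4% O2 and in HIF1A replicate 2 at 20% O2.

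Ulk1 carried the highest peak among the 6 genes. The ULK1 kinase gene lies on chromosome 5 (mm10, 110784489 to 110810120, minus strand). Its main site was inside the gene, with the HIF1A summit of 4% O2 7848 bp from the upstream end of the span. In HIF1A at 4% O2 the peak of replicate 1 (110801722 to 110802574) stood at rank 21 of 42701, percentile 99.95, and the summit of replicate 2 (110802272) at rank 17 of 13655, percentile 99.88. In ARNT at 4% O2 the peak of replicate 1 (110802052 to 110802542) stood at rank 7 of 24942, percentile 99.98, and that of replicate 2 (110801267 to 110802855) at rank 16 of 9920, percentile 99.85. The HIF1A summit fell within all 3 of the other peaks. At most 25 of the 21631 genes had a higher peak in their window in any of these 4 lists. At 20% O2 HIF1A replicate 2 had a summit 15 bp away from that of 4% O2, at rank 24 of 13386, and ARNT replicate 1 had a peak over it at percentile 61.3. HIF1A replicate 1 and ARNT replicate 2 had no peak at 20% O2. No list had a peak over the Ulk1 promoter window itself. The nearest site to it, 1655 bp inside the gene, had a peak in HIF1A replicate 1 at percentile 68.1 and in ARNT replicate 1 at 12.9, both at 4% O2. A further site at the lower edge of the Ulk1 window, with peaks in 3 of the 4 lists at 4% O2, lay 6 bp from an end of Pus1, a neighbouring gene.

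Bnip3, the mitophagy receptor gene on chromosome 7 (138890836 to 138909506, minus strand), had a pair of strong sites. The first lay on the promoter printed above. There the HIF1A summit of replicate 2 at 4% O2 (138909605, percentile 99.78) was 99 bp before the transcription start and 2 bp from the centre of the nearest core, a GCGTG on the opposite strand. The summit of HIF1A replicate 2 at 20% O2 (138909593, percentile 99.66) was 12 bp from it. The peaks of HIF1A replicate 1 (percentile 99.90), ARNT replicate 1 (99.86) and ARNT replicate 2 (99.82) at 4% O2 each covered the whole printed stretch. At 20% O2 HIF1A replicate 1 and both ARNT lists had no peak on this promoter.

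The second Bnip3 site lay inside the gene. The HIF1A replicate 2 summit at 4% O2 (138907225, percentile 99.70) was 2281 bp from the upstream end of the gene, and that at 20% O2 (percentile 99.22) was 25 bp from it. HIF1A replicate 1 had a peak of 2555 bp there at percentile 99.90, with the same score as its promoter peak next to it, and ARNT had peaks at 99.82 and 99.44 in replicates 1 and 2 at 4% O2. At 20% O2 ARNT replicate 1 had a peak over this site at percentile 9.91 and none at the promoter. Weaker calls flanked both sites in HIF1A replicate 1 and ARNT replicate 1 at 4% O2, with percentiles of 9.38 to 76.5, and HIF1A replicate 2 had a summit between them at 20.0.

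Another Bnip3 site straddled the upstream border of the window, about 10 kb from the gene. HIF1A replicate 1 at 4% O2 had a peak of 1350 bp (138918929 to 138920278) at percentile 99.25, and ARNT replicate 2 at 4% O2 had one at 97.2. In the part of the site inside the window, HIF1A replicate 2 had only a summit at percentile 13.0, and ARNT replicate 1 and all lists at 20% O2 had none. The window ends at 138919506, within this site, and peaks wholly beyond that border were not listed. Whether the replicates at 4% O2 differed over the whole site was therefore not tested. The centre of the large HIF1A peak was 10097 bp from the gene, just outside the 10 kb border, and the peak counts because it overlaps the window.

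For Bnip3l, which encodes the related receptor NIX (chromosome 14, 66985238 to 67008877), the peaks gathered at the higher-coordinate end of the span. The strand of this gene is not in the sources used here. The HIF1A summit of replicate 2 at 4% O2 (67008352, percentile 99.14) lay 525 bp inside that end, within peaks of HIF1A replicate 1 (percentile 99.60) and of ARNT replicates 1 (99.25) and 2 (98.72). At 20% O2 HIF1A replicate 2 had a summit 13 bp away, at percentile 98.49, and a second one 82 bp beyond the gene end at 72.1. Around that second summit, HIF1A replicate 1 and both ARNT lists had another peak at 4% O2, at percentiles of 98.1, 96.2 and 92.7, whereas HIF1A replicate 2 at 4% O2 had none. No ARNT peak was found at 20% O2 in the window of Bnip3l.

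**Figure D2:**
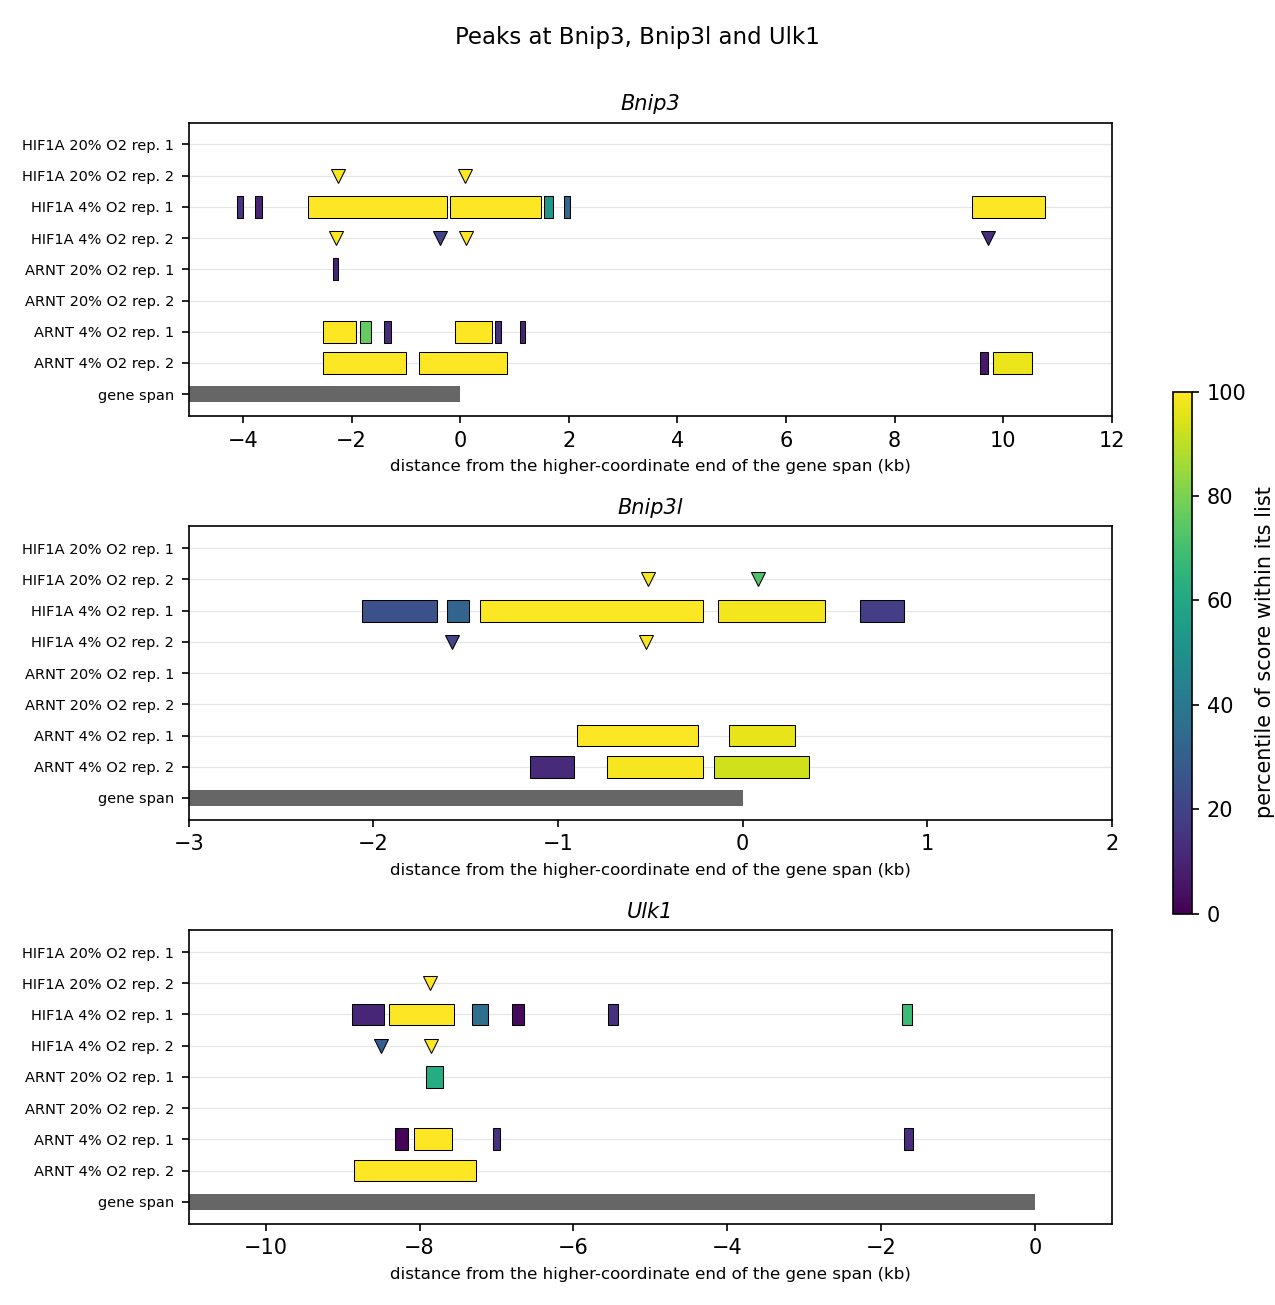
Peaks at Bnip3, Bnip3l and Ulk1 in the 8 lists (rows), by distance in kb from the higher-coordinate end of the gene span; bars are peak intervals, triangles are the 1 bp entries of HIF1A replicate 2, and colour is the percentile within the list. At each gene the strongest peak of every list at 4% O2 lines up with a triangle of HIF1A replicate 2 at 20% O2. HIF1A replicate 1 at 20% O2 has no mark, and the Bnip3 site about 10 kb from the gene has no mark at 20% O2. The site at the lower edge of the Ulk1 window is outside the plotted range. Peaks wholly outside a gene's window are not drawn.

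The summits gave the finest view of these sites. HIF1A replicate 2 had 8 summits in the windows at 4% O2, and 4 of them lay within a peak of all 3 other lists at 4% O2, against 39.9% of the 13655 summits of that list. The 4 were the strong ones, at percentiles of 99.14 or more, and the other 4 were at 29.1 or less. The 39.9% covers summits of every percentile, so it is not a like comparison for strong summits. Of the 6 summits that HIF1A replicate 2 had in the windows at 20% O2, 4 were within 25 bp of one at 4% O2, the 4 strong sites of Bnip3, Bnip3l and Ulk1. Over the whole list 29.2% of 13386 summits were that close, and the median distance was 169 bp. The cut of 25 bp equals the largest of the 4 distances, and the share covers summits of every percentile, so the 2 are not a like comparison. The other 2 were the outer Bnip3l summit, 607 bp away, and one at Becn1.

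Pink1, the kinase gene on chromosome 4 (138313409 to 138326296, minus strand), had weaker sites that differed between lists. At the promoter printed above, HIF1A replicate 1 (138326269 to 138326387, percentile 66.5) and ARNT replicate 1 (138326277 to 138326409, percentile 91.8) had a peak at 4% O2. The centre of the ARNT peak was 2 bp from the centre of the single GCGTG and that of the HIF1A peak 13 bp. Neither replicate 2 list had a peak there. A second site, 735 bp inside the gene, had a peak in HIF1A replicate 1 (46.3) and ARNT replicate 2 (67.7) at 4% O2. Near the start of Pink1 the ARNT replicates thus had peaks at different sites. A further site lay at the other edge of the window, 68 bp from an end of the neighbouring gene Ddost. It was the only site in the Pink1 window with both ARNT lists at 4% O2 (83.0 and 2.70), and it also had HIF1A replicate 1 at 4% O2 (54.7) and ARNT replicate 1 at 20% O2 (71.6).

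Over the promoter windows, Bnip3 was called among the 4 genes with a sequence, at 4% O2 and with either antibody. The same held for 8.08% (HIF1A) and 8.74% (ARNT) of 32619 promoter windows. At 20% O2 none of the 4 was called, and the shares of all windows were 0.904% and 1.8%.

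Becn1 and Fundc1 had little binding. Becn1, the Beclin 1 gene (chromosome 11, 101288258 to 101302286), had a single summit of HIF1A replicate 2 at 20% O2 (percentile 37.7), 44 bp beyond the gene's higher-coordinate end. No list at 4% O2 had a peak there, and the nearest summit of HIF1A replicate 2 at 4% O2 was 32289 bp away. The other Becn1 peaks, of HIF1A replicate 1 (4.61) and ARNT replicate 1 (37.4) at 4% O2, lay 70 and 54 bp, in that order, from an end of Coa3 near the window's edge. At Fundc1, a hypoxia-linked receptor gene on chromosome X (17519967 to 17572329), the only peak among all 8 lists was in HIF1A replicate 1 at 4% O2. It was at percentile 16.6, with its centre 3 bp beyond the span's upstream end. This peak lay outside the promoter window, but that window (17571958 to 17572257) is inside the span and does not reach the span's end. The 10 kb-flanked window of Fundc1 was the longest of the 6, at 72.4 kb, against a median of 37.3 kb for all genes.

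**Figure D3:**
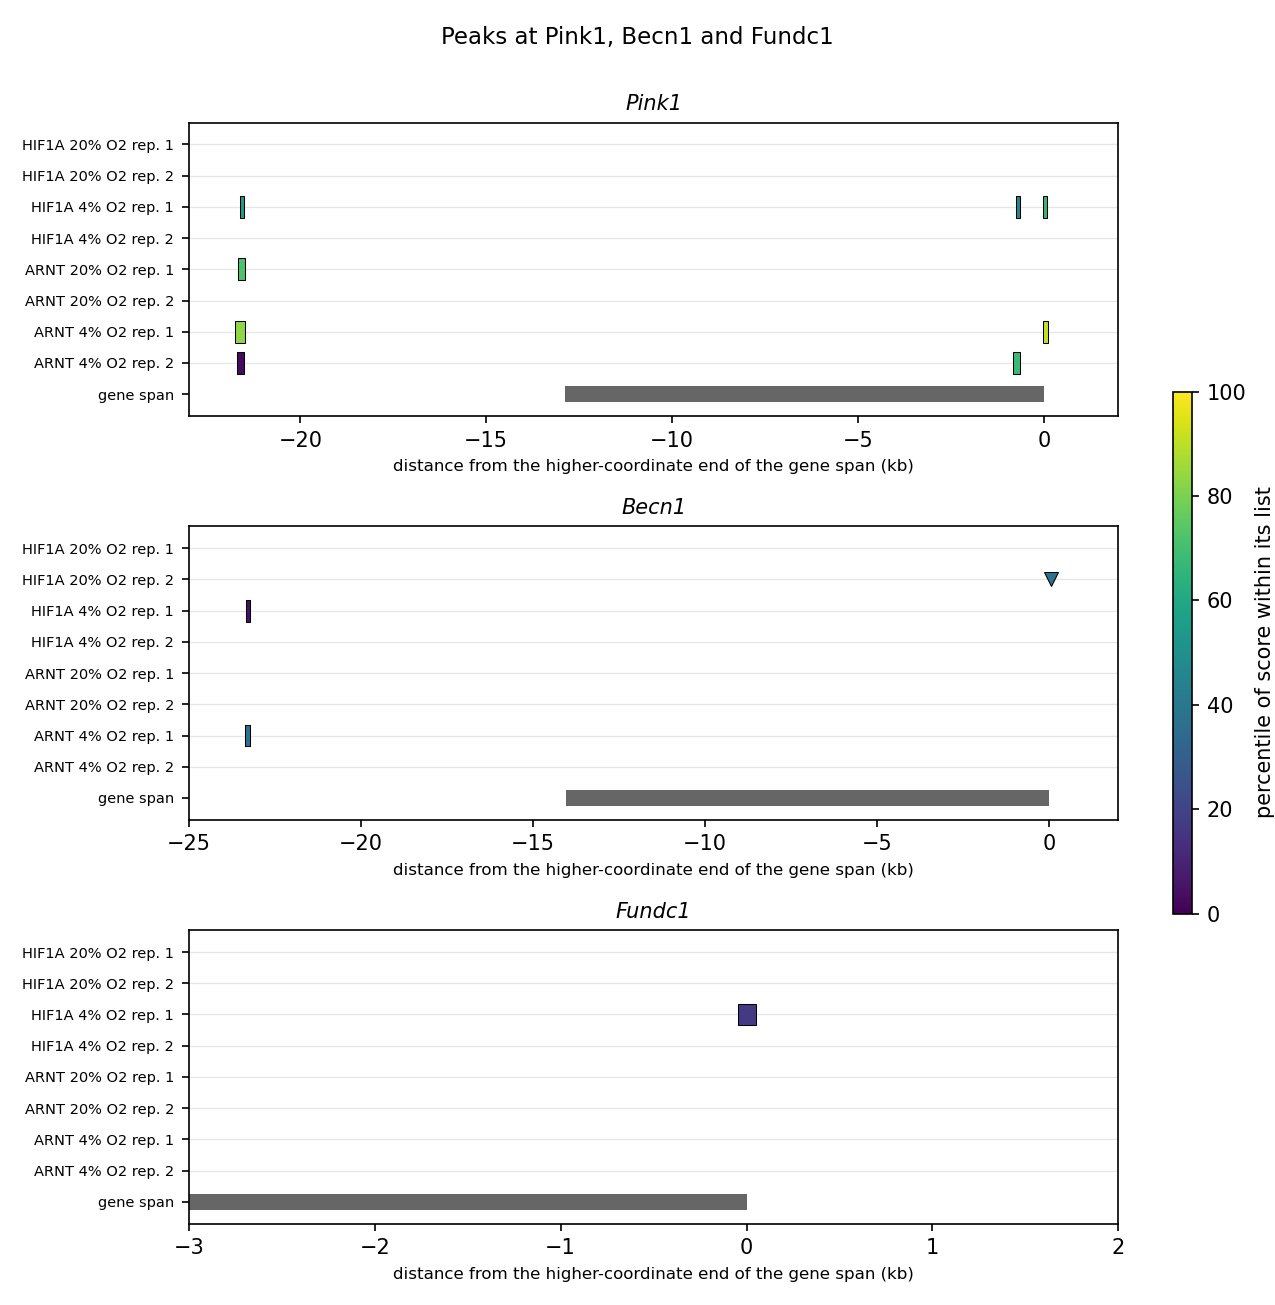
Peaks at Pink1, Becn1 and Fundc1 in the 8 lists (rows), drawn by distance in kb from the higher-coordinate end of the gene span, with bars for intervals, a triangle for the 1 bp entry and colour for the percentile within the list. The groups of bars left of the Pink1 and Becn1 spans lie at the neighbouring genes Ddost and Coa3, and Fundc1 has a single low bar.

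The comparison between oxygen levels asked whether a gene's window held more peaks at 4% than at 20% O2. Bnip3 held 7 and 4 HIF1A peaks at 4% O2 against 0 and 2 at 20% O2, and 6 and 4 ARNT peaks against 1 and 0, for replicates 1 and 2. For Ulk1 the numbers were 7 and 2 HIF1A peaks against 0 and 1, and 5 and 2 ARNT peaks against 1 and 0. In both genes each list at 4% O2 held more peaks than either list at 20% O2 of that antibody, which was so for 2 of the 6 genes and for 10.3% of all genes. For Ulk1 this rested on the site at Pus1: ARNT replicate 2 at 4% O2 had 1 of its 2 peaks there, and without that site it had as many as ARNT replicate 1 at 20% O2. Bnip3l had 5 and 2 HIF1A peaks against 0 and 2, so these groups touched, and 2 and 3 ARNT peaks against 0 and 0. The remaining genes overlapped for at least 1 antibody. Pink1 had 3 and 0 HIF1A peaks against 0 and 0, and 2 and 2 ARNT peaks against 1 and 0.

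Averaged over the antibodies, the window of Bnip3 held 4.5 more peaks at 4% than at 20% O2 (two-sided exact permutation test within antibodies, p = 0.0556, the smallest that 36 arrangements allow). The difference was 3.5 for Ulk1 (exact p = 0.0556; 2.75, exact p = 0.111, with only peaks nearest to its own ends, a setting chosen after seeing the data), 2.5 for Bnip3l (exact p = 0.111), 1.5 for Pink1 (exact p = 0.167), and 0.25 for Becn1 and for Fundc1 (exact p = 1 for each). With Benjamini-Hochberg adjustment of these exact permutation p-values over all 21631 genes, the adjusted p was 0.541 for Bnip3 and Ulk1, 0.677 for Bnip3l and 0.695 for Pink1. The design cannot reach 0.05, and 0 of 21631 genes did so, adjusted or not. The 36 arrangements exchange oxygen levels separately for each antibody. The sample titles do not say whether both antibodies were used on the same cultures, in which case fewer arrangements would apply. Among all genes the median difference was 0.25 and 56.3% had more peaks at 4% O2, while 2.05% had fewer. The file headers place every replicate 1 sample on a single sequencing lane, and among those samples the differences were 6 for Bnip3, 5.5 for Ulk1, 3.5 for Bnip3l, 2 for Pink1, 1 for Becn1 and 0.5 for Fundc1. No other lane held an antibody at 20% and at 4% O2, as far as the headers show. In replicate 1 the HIF1A lists held 5393 peaks at 20% and 42701 at 4% O2, and the ARNT lists 7252 and 24942. Oxygen level and list length therefore cannot be told apart in the replicate 1 differences.

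The number of peaks counts the weaker calls beside a strong peak as well, and it rises with the length of the list. With the highest percentile in the window in its place, counting 0 for no peak, the mean difference was 72.4 points for Bnip3, 74.6 for Bnip3l and 59.6 for Ulk1 (exact permutation p = 0.0556 for each). It was 38.6 points for Pink1 (exact permutation p = 0.333), and 4.14 for Fundc1 and 1.07 for Becn1 (exact permutation p = 1 for each). This measure depends on list length as well, through the zeros. At 20% O2 HIF1A replicate 2 stood at 99.7 for Bnip3, 98.5 for Bnip3l and 99.8 for Ulk1. ARNT replicate 1 stood at 9.91 for Bnip3 and 61.3 for Ulk1, and the remaining values of these genes at 20% O2 were 0.

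**Figure D4:**
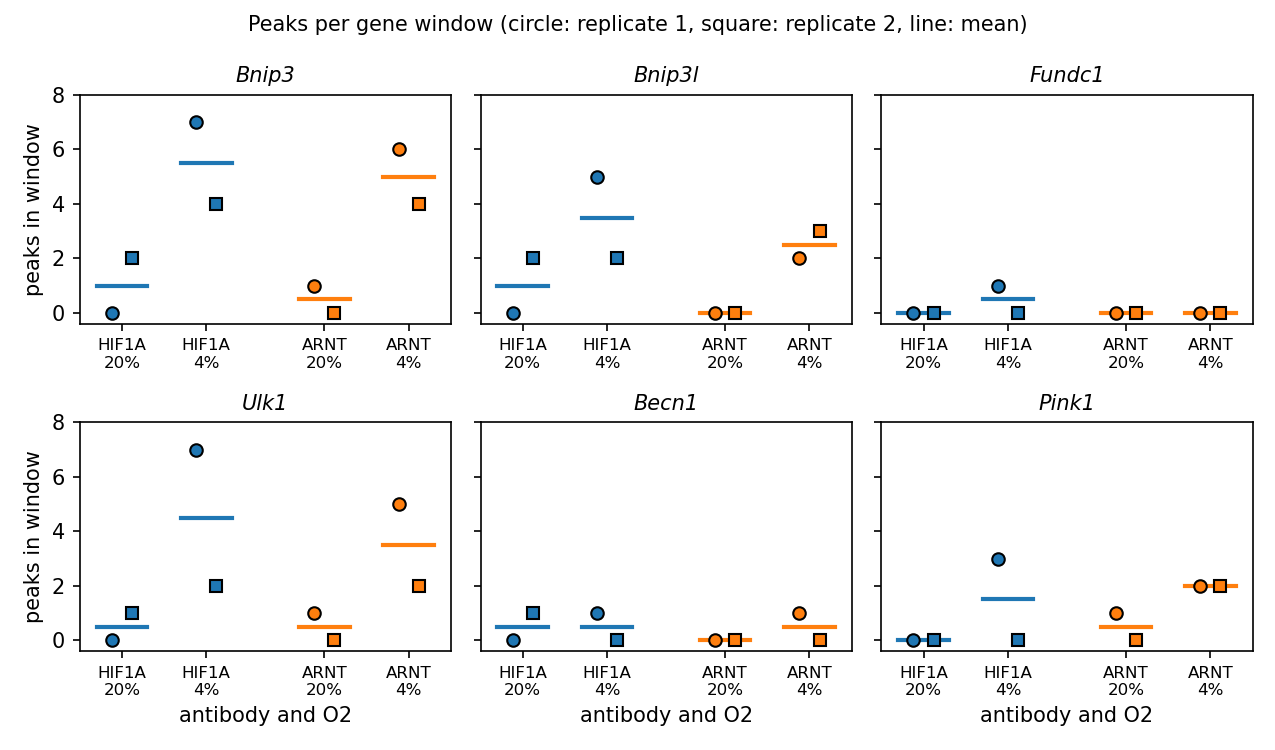
Number of peaks in the window of each gene (vertical axis) by antibody and oxygen level, with a circle for replicate 1, a square for replicate 2 and a line for the mean of the 2 lists. For Bnip3 and, with the site at Pus1 counted, Ulk1 the points at 4% O2 lie above those at 20% O2 for both antibodies, and for Bnip3l they touch for HIF1A.

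Genes with the most similar pattern were found by the Euclidean distance between highest percentiles over the 8 lists. The nearest to Ulk1 were Aldoa, a glycolysis enzyme gene, and its neighbour Ppp4c, which share a peak (distance 4.03), followed by Fnbp4 (5.58). Nearest to Bnip3l were the neighbours Mark2 and Rcor2 (0.183) and then Mpp2 (0.362). For Bnip3 they were G2e3 (2.31) and the neighbours Gzf1 and Nxt1 (5.07). The nearest to Becn1 was Fam228a (5.04), and the nearest to Pink1, Cfap54, was farther away (12.9). Fundc1 had a peak in too few lists to be compared.

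The other genes of mitophagy and autophagy gave 59 further windows. HIF1A was called at 29 of 59 (49.2%, against 34.5% of all genes) and ARNT at 31 of 59 (52.5%, against 31.6%) at 4% O2, with 25 called for both (42.4%, against 26.4%). At 20% O2 the counts were 15 (25.4%, against 10.7%) for HIF1A and 11 (18.6%, against 7.25%) for ARNT. The difference in peak number had a median of 0.75 over these genes and was above 0 at 47 and below 0 at 1, Atg14. By role, both antibodies were called at 4% O2 at 5 of 11 receptors and adaptors, 4 of 10 genes of the PINK1-Parkin axis and outer membrane, 3 of 9 of the ULK complex and its kinases, 3 of 9 of the Beclin 1 and VPS34 complex, and 10 of 20 of membrane supply and LC3 conjugation.

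Only Ddit4, which encodes an inhibitor of mTORC1, had a mean percentile at 4% O2 (99.8) in the range of Bnip3, Bnip3l and Ulk1. Next came Vdac1, the outer membrane channel (97.7), Atg2b, a lipid transfer protein (97.3), Bcl2l1, which encodes the Beclin 1 binding protein BCL-XL (96.6), and Atg9a, a scramblase of the autophagosome (95.6). Mfn2, a mitofusin (91.7), Rubcn, an inhibitor of the VPS34 complex (90.6), and Nbr1, an autophagy adaptor (81.8), completed the 8 highest. Of the genes called at 20% O2 for at least 1 antibody, the highest by mean percentile over the 4 lists at 20% O2 were Atg10 (93.8), Wipi1 (87.5), Atg7 (84.5), Ddit4 (77.2), Rptor (73.1), Vdac1 (69.0), Ambra1 (65.2) and Sqstm1 (60.1). At Atg10, a conjugating enzyme gene, all 4 lists at 20% O2 had a peak, at percentiles of 97.7 and 96.3 for HIF1A and 93.9 and 87.1 for ARNT, while ARNT replicate 2 at 4% O2 had none. Its window still held more peaks at 4% than at 20% O2, by 1.5 on average. HIF1A had 12 and 5 against 5 and 7, and ARNT 10 and 0 against 5 and 4. Atg10, Rptor, Atg7 and Ambra1 have spans far longer than the median window of 37.3 kb, and calls were not adjusted for length.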

How the data were processed

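Peak lists of 8 ChIP samples were used; groups and replicate numbers came from the sample titles. The build mm10 and the tools BWA, Picard and MACS2 are named in the submitters' processing notes; their version and setting were not given in the sources used here. Each deposited list gives a position and a score per peak, the authors' own value, on a scale that no header names, so it was used only within a list. Peaks were called per sample against 1 input, per the sample names in the files: HIF1A replicate 2 against input 5, all others against input 4, at the matching oxygen level, so HIF1A replicate 1 shares its input with ARNT. Both HIF1A replicate 2 lists hold 1 bp entries, read here as summits, and combine 2 sequencing runs per the labels; the other 6 give intervals, whose median width was 129 to 182 bp.

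Gene spans came from RefSeq GRCm38.p6. A peak counted with an overlap of at least 1 bp with the window, and a gene was called for a group with a peak in both lists. Exons and introns were not used here. Peaks at most 200 bp apart were joined into 1 site, 16 in all. Oxygen levels were compared by a two-sided exact permutation test exchanging labels within antibodies, with Benjamini-Hochberg adjustment over all protein-coding genes; the script was tested on simulated data. A call for a single antibody has a smallest exact p of 0.333. All 59 other pathway genes matched the annotation. The 6 genes are described throughout; of the 59, the rule named the 8 highest called for both antibodies at 4% O2 and the 8 highest called at 20% O2. The genes and lists were chosen with earlier results of these data known. Alternatives were other windows, peak subsets, overlap rules, leaving out a replicate, a replicate block and other measures. Python 3.11.15, numpy 2.4.6, pandas 2.3.3 and matplotlib 3.10.9 were used.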

Additional observations from a re-analysis of the deposited data

How the results depend on the processing

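Calls at 4% O2 held Bnip3, Bnip3l and Ulk1 for both antibodies under all 10 settings that gave calls. Without replicate 1, the genes called at 4% O2 were 3 for HIF1A (34.8% of all genes) and 4 for ARNT (35.5%). Without replicate 2 they were 6 (56.9%) and 5 (49.3%). At 20% O2 they were 4 for HIF1A (31.7%) and 0 for ARNT (7.6%) without replicate 1. Without replicate 2 they were 0 for HIF1A (11.3%) and 3 for ARNT (22.3%) at 20% O2. With a replicate left out, the oxygen difference ranged from 3 to 6 for Bnip3, 1.5 to 3.5 for Bnip3l, 1.5 to 5.5 for Ulk1, 1 to 2 for Pink1, 0 to 0.5 for Fundc1 and -0.5 to 1 for Becn1. For Becn1 it was -0.25 within 5 kb and with only peaks nearest to the gene's own ends (chosen after seeing the data), and -0.028 as peaks per 10000 of the list. It was 0 for Becn1 with no flank, for Becn1, Fundc1 and Pink1 with the 1808 highest peaks, and for Becn1 and Fundc1 above the median score. These peak subsets gave 0.75 and 1 for Ulk1, 2 and 2.5 for Bnip3, and 1.5 and 1.25 for Bnip3l; for Ulk1 2.75 was found with no flank and with only peaks nearest to its own ends. The exact p ranged from 0.0556 to 0.125 for Bnip3, from 0.0556 to 0.333 for Ulk1 and from 0.0556 to 0.25 for Bnip3l. With a replicate block the exact p was 0.125 for Bnip3 and Ulk1, the smallest it allows, and no gene passed with or without it. Same-numbered lists deviated together in the 3 comparisons of groups without HIF1A at 20% O2 (correlations of 0.594 to 0.758 over genes) and the opposite way in the 3 with it (-0.564 to -0.430). These signs go with list length, as replicate 1 was the longer list in every group but HIF1A at 20% O2. They do not show whether same-numbered lists are pairs. The main test did not take the numbers as pairs, and the replicate block did. Depth is unknown and limits what a missing peak shows.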
